A study of Mus musculus with 2 samples.

Results

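Early proximal tubule transcripts were found in 489 of the 13563 barcodes called as nuclei in 2 libraries of nuclei sorted for a thick ascending limb (TAL) label. Members were chosen by their own counts: at least 5 counts of Lrp2 and Cubn together, which encode the endocytic receptors megalin and cubilin, and at least 3 counts of Slc5a2 and Slc5a12 together. These 4 levels, and Slc12a1 below, are therefore given as descriptions and support nothing. Slc12a1 encodes NKCC2, the sodium-potassium-chloride cotransporter that defines the TAL, and members with at most 2 Slc12a1 counts (Slc12a1-low) are described apart from members with at least 10 (Slc12a1-high), which may hold a TAL nucleus as well.

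The mice were male NKCC2-INTACT animals on a B6 background, labelled WT, with an age entry of 12 that carries no unit. They carried a tamoxifen-inducible Cre driven by the NKCC2 gene and a Cre-dependent Sun1-sfGFP tag, a green fluorescent protein held at the nuclear envelope, and received 1 mg tamoxifen daily for 5 days followed by 10 days of induction. The cortex library came from a superficial strip of about 20% of kidney depth and the medulla library from the remainder, and GFP-positive nuclei were gated by fluorescence sorting, so proximal tubule nuclei were not the cells the gate was set for. Every group below comes from these same 2 libraries and shares genotype and treatment. With 1 library per region there was no replicate and no test, and whether a library pooled several animals was not given in the sources used here.

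The proximal tubule begins at the glomerulus and recovers most of the filtered glucose, amino acids, phosphate, bicarbonate and protein. Its early convoluted portion is known for SGLT2, the high-capacity glucose transporter encoded by Slc5a2, and for SMCT2, a lactate transporter encoded by Slc5a12. The final straight portion carries other amino acid transporters, such as that encoded by Slc7a13, and in male mice abundant Cyp7b1, an oxysterol hydroxylase.

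The cortex library held 5442 called nuclei and 16457300 counts, with a median of 2427 counts per nucleus. The medulla library held 8121 nuclei and 20947211 counts, with a median of 2430. Of these, 413 cortical nuclei were members (7.59%, exact 95% binomial interval 6.90% to 8.33%) and 76 medullary nuclei (0.936%, interval 0.738% to 1.17%). The share was larger in cortex, and the intervals did not overlap. All intervals cover counting error only. No barcode sequence occurred in both libraries.

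Slc12a1-low members numbered 39 in cortex, or 9.44% of cortical members (6.80% to 12.7%), and 24 in medulla, or 31.6% (21.4% to 43.3%). Slc12a1-high members numbered 368 in cortex (89.1%) and 52 in medulla (68.4%). The range from 3 to 9 counts held 6 cortical and 0 medullary members, and it was sparsely filled among all called barcodes too, with 66 of 5442 and 9 of 8121. Among low members, Slc12a1 stood at 0 in 23 cortical and 18 medullary barcodes. Of the cortical high members, 19 had 10 to 15 counts.

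**Figure D1:**
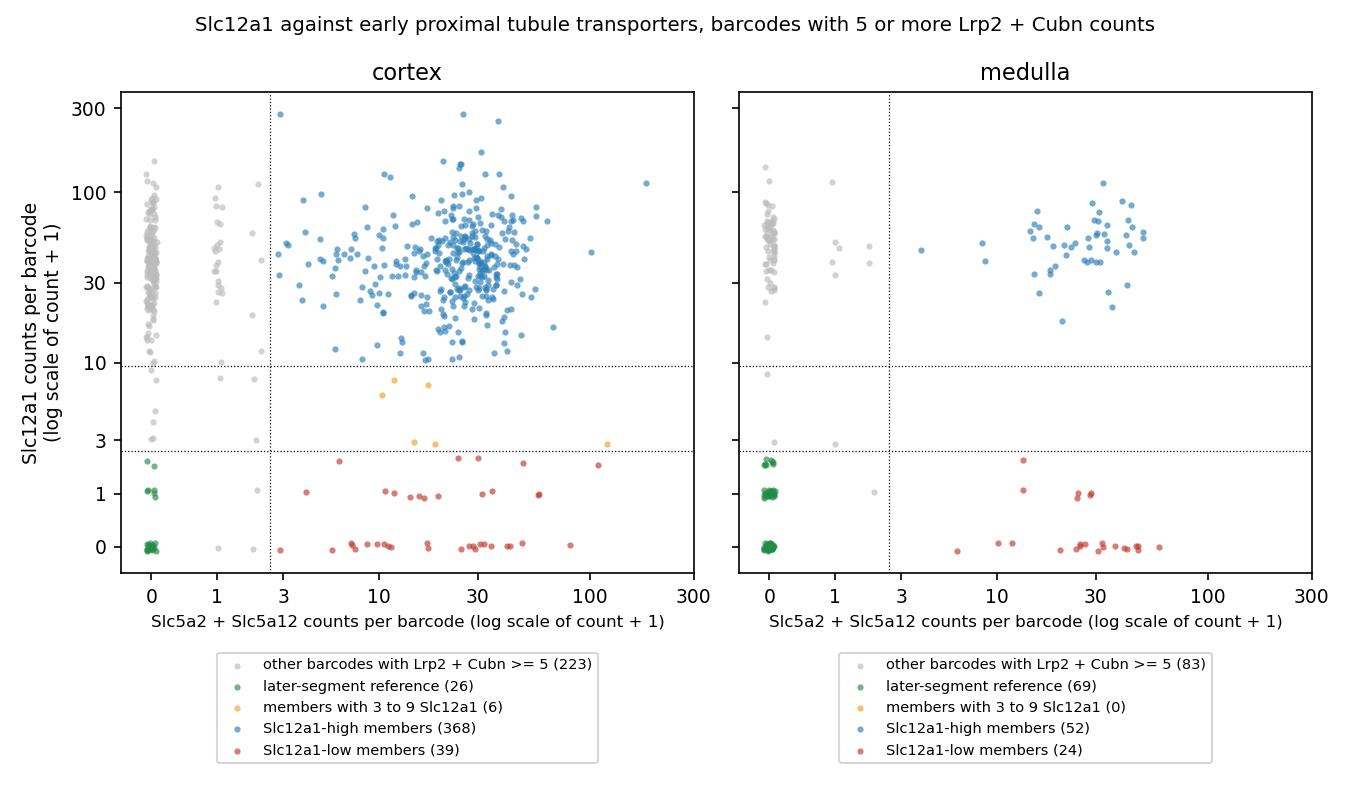
Slc12a1 counts (vertical) against Slc5a2 and Slc5a12 counts together (horizontal) for each called barcode with at least 5 Lrp2 and Cubn counts, on a log scale of the count plus 1 with slight random displacement; dotted lines mark the chosen limits. Members sit right of the vertical line, 39 and 24 of them below the lower horizontal line and 368 and 52 above the upper one.

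At the edge of the rule, 9 cortical and 3 medullary barcodes with enough Lrp2 and Cubn had 2 counts of Slc5a2 and Slc5a12, just outside, and 6 and 0 had 3, just inside. Zero counts of both genes were found in 216 cortical and 143 medullary barcodes with enough Lrp2 and Cubn. With enough Slc5a2 and Slc5a12 instead, 30 cortical barcodes and 1 medullary barcode had 4 counts of Lrp2 and Cubn, and 26 and 4 had 5. Both Slc5 genes were present in 347 of 413 cortical and 68 of 76 medullary members, and Slc5a12 alone in 66 and 7.

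Comparisons use counts summed over the barcodes of a class and expressed as CPM, the share of a class total that a gene takes, scaled to the same total in each class. The TAL reference is barcodes with at least 10 Slc12a1 counts, at most 1 count of Lrp2 and Cubn and none of Slc5a2 or Slc5a12 (4352 in cortex, 7763 in medulla). The later-segment reference is barcodes with at least 5 counts of Lrp2 and Cubn, at most 2 of Slc12a1 and none of Slc5a2 or Slc5a12 (26 in cortex, 69 in medulla). A gene was compared where the mean CPM of both classes was worth at least 10 counts in the smaller one, the 5 genes of the rule left out, and it is counted as higher or lower past a 2-fold ratio. Ratios carry an exact 95% interval for counting error, and a class with 0 counts is set to a floor of 3 counts, which makes the ratio a bound.

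Before the results, 4 cortical low members stand apart: they held 14419 to 40086 counts, where the other 35 had a median of 3405, and they supplied 45.3% of all counts of the cortical low members. They carried more counts of several other cell types, though not of all. Endothelial markers summed to 634.7 CPM against 239.6 in the other 35, podocyte markers to 233.4 against 38.6 and immune markers to 177.3 against 15.5. The medullary low members reached 6373 counts at most. Principal cell markers summed to 186.7 against 15.5 CPM and intercalated cell markers to 112 against 30.9 CPM. The distal tubule genes Slc12a3 and Slc8a1 went the other way, with 5 of 62 and 34 of 179 counts in the 4 deep barcodes. Their levels were 262.1 and 756.7 CPM in all cortical low members and 440.5 and 1120 CPM in the other 35. Values without the 4 deep barcodes are given below for cortical list genes whose printed level moved by more than 1.5 times.

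The 4 early segment markers outside the rule were present in the low members of both libraries. They were listed with earlier results of these data known, and members were chosen by Slc5a2 and Slc5a12 of the same segment. Their presence therefore describes the members and is no test of the label. Gatm encodes arginine:glycine amidinotransferase, the first enzyme of creatine synthesis. It ranged from 0 to 14 counts per barcode in cortical low members (median 2, detected in 79.5%) and from 0 to 8 in medullary ones (median 3, 91.7%). In the TAL reference it was detected in 1.88% of cortical and 0.657% of medullary barcodes, at median depths of 2296 and 2413 counts against 3540 and 3799 in low members. Its level was 494.6 CPM in low members of cortex and 797 CPM in those of medulla, against 7.73 and 2.81 CPM in TAL, ratios of 64.0 (47.9 to 85.8) and 283.7 (197.1 to 410.8).

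Prodh2, hydroxyproline dehydrogenase, reached 181.8 CPM in low members of cortex and 441.6 CPM in those of medulla, with 0 counts in the later-segment reference of either library. It ranged from 0 to 8 counts per barcode in cortex and 0 to 7 in medulla, with a median of 1 in both, and was detected in 56.4% and 79.2% of them. Slc34a3, the sodium-phosphate cotransporter NaPi-IIc, reached 71.9 and 75.4 CPM from 17 and 7 counts. Cyp24a1, the enzyme that inactivates vitamin D, reached 63.4 and 193.9 CPM from 15 and 18 counts, in 7 of 39 and 6 of 24 barcodes. The sparser pair was thus seen in at most 25.6% of the barcodes of a class.

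Promoters of these markers are shown because the genes were high together. They come from RefSeq (GRCm38.p6, another build than the counts), 250 bases before to 50 after the start, in the direction of the gene. Capitals mark GTTAAT or its reverse complement ATTAAC, part of the element bound by HNF1, a transcription factor of the proximal tubule. CAAAGTCCA, an element bound by HNF4, was also searched on both strands. Slc34a1, whose level is described below, is shown with them.
Slc34a3, chr2:25234185-25234484, minus strand: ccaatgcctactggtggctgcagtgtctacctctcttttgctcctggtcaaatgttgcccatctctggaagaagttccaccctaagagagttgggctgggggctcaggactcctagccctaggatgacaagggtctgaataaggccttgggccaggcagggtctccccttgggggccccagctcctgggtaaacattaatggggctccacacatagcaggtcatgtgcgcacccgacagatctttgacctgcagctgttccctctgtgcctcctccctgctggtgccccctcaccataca
Prodh2, chr7:30493408-30493707, plus strand: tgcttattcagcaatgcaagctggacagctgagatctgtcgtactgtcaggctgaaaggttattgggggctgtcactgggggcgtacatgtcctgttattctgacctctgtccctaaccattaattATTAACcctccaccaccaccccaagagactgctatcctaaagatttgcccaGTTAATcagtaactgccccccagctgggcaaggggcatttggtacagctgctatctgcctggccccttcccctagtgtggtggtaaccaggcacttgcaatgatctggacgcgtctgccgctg
Gatm, chr2:122611228-122611527, minus strand: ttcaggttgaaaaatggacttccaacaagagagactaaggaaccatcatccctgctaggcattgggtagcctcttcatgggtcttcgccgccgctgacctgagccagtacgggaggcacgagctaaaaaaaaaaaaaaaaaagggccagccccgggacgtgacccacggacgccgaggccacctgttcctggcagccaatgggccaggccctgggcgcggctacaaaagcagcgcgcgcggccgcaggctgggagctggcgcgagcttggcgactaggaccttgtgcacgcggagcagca
Slc34a1, chr13:55399398-55399697, plus strand: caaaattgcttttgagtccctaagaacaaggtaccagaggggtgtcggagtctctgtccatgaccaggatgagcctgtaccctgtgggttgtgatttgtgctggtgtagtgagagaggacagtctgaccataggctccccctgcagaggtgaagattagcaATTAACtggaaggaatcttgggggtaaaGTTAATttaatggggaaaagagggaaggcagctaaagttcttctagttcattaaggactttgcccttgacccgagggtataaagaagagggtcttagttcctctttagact

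GTTAAT in either direction occurred 2 times in the Prodh2 promoter, from -124 to -119 and from -73 to -68 with the start at 0, and 2 times in the Slc34a1 promoter, from -89 to -84 and from -61 to -56. It was not among the letters of the other pair, and 7.10% of the 32851 RefSeq promoters of this length held it. CAAAGTCCA was found in none of the 4 and in 0.475% of all promoters. The promoter of Slc6a19, another early segment gene, was searched as well and held neither element. A match describes the sequence and is not a binding site. Promoters of Slc5a2, Slc5a12 and Cyp24a1 were not used here.

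Against the TAL reference, Slc12a1-low members carried the genes of proximal tubule transport and few counts of those of the TAL. In cortex 899 of 4830 compared genes were higher (18.6%) and 741 lower (15.3%). In medulla 476 of 2113 were higher (22.5%) and 387 lower (18.3%). Among the 2110 genes compared in both libraries, 393 were higher in both, 89.9% of the cortical and 82.7% of the medullary higher genes. Median log2 ratios over all compared genes were -0.01 and -0.04.

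Organic anion, cation and urate transporters had 14 of 15 compared genes higher in cortex and 10 of 11 in medulla, with median log2 ratios of 5.59 and 7.48. Amino acid transporters had 11 of 13 and 8 of 9 higher, and none lower. All 7 compared genes of creatine, proline and glycine metabolism were higher in cortex and all 5 in medulla. Of 8 compared proximal transcription factors, 5 were higher in each library. These included Hnf4a, the factor of the proximal lineage, at 405.8 CPM in low members of cortex and 463.1 CPM in those of medulla against 11.6 and 4.99 in TAL. Maf, another transcription factor, stood at 684.9 and 958.6 CPM against 28.7 and 8.12.

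The 8 genes farthest above TAL, by the bound of the interval nearest 1, included Snhg11, Hnf4aos, Fut9, Dab2 and Gldc in both libraries. Snhg11, a long noncoding RNA, reached 621.5 CPM in low members of cortex and 1099 CPM in those of medulla, against 1.96 and 0.728 in TAL. Fut9, a fucosyltransferase that makes a carbohydrate epitope of the proximal brush border, reached 4084 and 6376 CPM against 24.2 and 8.27. Dab2, the endocytic adaptor of megalin, reached 4414 and 4847 CPM against 27.6 and 6.87, with ratios of 160.1 (140.6 to 182.8) and 705.9 (580.2 to 863.7). Hnf4aos lies antisense to Hnf4a, and how strand entered the counting was not given in the sources used here, so its level is uncertain. The other genes of the first 8 were Slc22a28, Slc13a1 and Slc22a30 in cortex and Slco1a6, Prodh2 and Slc2a2 in medulla. Slc22a28 and Slc22a30 belong to a family of related organic anion transporters, among which reads can be split.

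The TAL genes were lower in low members, with 1 exception. Of the 9 compared TAL genes 8 were lower in cortex, and of 7 in medulla 6 were lower. Umod, encoding uromodulin, the major urinary protein made by the TAL, stood at 84.6 CPM in low members of cortex and 86.2 CPM in those of medulla against 3836 and 3902 CPM in TAL. Without the deep barcodes, which held 1 of its 20 counts, the cortical level was 146.8 CPM. Kcnj1, the potassium channel ROMK, had 2 and 1 counts in low members against 535.9 and 672.5 CPM in TAL. Cldn16 and Bsnd, a paracellular channel protein and the chloride channel subunit barttin, had 0 counts in both low classes. Cldn10, a claudin that is made in the proximal tubule as well as the TAL, was instead 376.3 CPM in cortical low members against 109.5 in TAL (ratio 3.44, 2.74 to 4.26) and 366.2 against 203.3 CPM in medulla (ratio 1.80, 1.25 to 2.52).

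Umod and Egf together gave a median of 1 count per cortical low barcode, from 0 to 20, and 0.5 per medullary one, from 0 to 2. The TAL reference had medians of 41 and 21. Among the genes farthest below TAL, Erbb4, a receptor tyrosine kinase, stood at 131.1 CPM in low members of cortex and 96.9 CPM in those of medulla against 10858 and 11575 CPM. Egf, the precursor of epidermal growth factor, stood at 169.1 and 75.4 CPM against 12698 and 7553 CPM. Its cortical level was 270.5 CPM without the deep barcodes. The remaining 6 in cortex were Thsd4, Sfrp1, Enox1, Casr, Tenm2 and Stk32b, and in medulla Abca13, Cacnb4, Sgcz, Mecom, Slc5a3 and Efna5.

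Acid-base and sodium entry genes were mixed, with 3 of 9 higher and 3 lower in cortex and 2 of 5 higher and 2 lower in medulla. Slc4a4, the basolateral bicarbonate exit transporter NBCe1, reached 2253 and 3490 CPM in low members against 56.4 and 39.1 CPM in TAL. Slc9a3, the sodium-proton exchanger NHE3, stood at 228.3 against 464.2 CPM in cortex (ratio 0.492, 0.369 to 0.643) and at 495.4 against 800.8 CPM in medulla (ratio 0.619, 0.453 to 0.826). Slc5a1, the glucose transporter SGLT1, had 3 and 0 counts in low members and 197.9 and 106.7 CPM in TAL.

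The question of segment identity is addressed by the later-segment reference, which shares Lrp2 and Cubn but was chosen to lack Slc5a2 and Slc5a12. In cortex 180 of 2445 compared genes were higher in low members (7.36%) and 151 lower (6.18%). In medulla 266 of 2069 were higher (12.9%) and 264 lower (12.8%). Without the 4 deep barcodes, 227 of 2419 genes were higher (9.38%) and 224 lower (9.26%) in cortex. Of the genes higher in low members and compared in both libraries, 77 were shared, 60.2% of the cortical and 31.3% of the medullary ones.

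Amino acid transporters were split. Of the compared members 5 of 12 were higher and 1 lower in cortex, and 7 of 13 higher and 3 lower in medulla, with median log2 ratios of 0.72 and 1.24 against -0.01 and 0.07 for all compared genes. The higher ones included Slc7a7 and Slc7a8, basolateral exchangers of amino acids, and Slc16a10, a basolateral aromatic amino acid transporter. Slc7a8 stood at 473.5 CPM in cortical low members against 36.7 CPM in the later-segment reference (ratio 12.9, 4.90 to 48.2). In medulla it stood at 764.7 against 8.44 CPM, the latter from 3 counts (ratio 90.6, 29.8 to 449.7). Slc7a7 stood at 511.5 against 55.05 CPM in cortex and at 797 against 109.8 CPM in medulla. Slc6a19, the apical neutral amino acid transporter of the early tubule, stood at 228.3 against 55.05 CPM in cortex (ratio 4.15, 1.79 to 11.8) and 570.8 against 14.1 CPM in medulla (ratio 40.6, 16.3 to 130.1).

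The lower gene shared by both libraries was Slc6a18, joined in medulla by Slc3a1 and Slc1a1. Slc6a18, an apical neutral amino acid transporter, stood at 109.9 CPM in cortical low members against 394.5 CPM in the reference, and at 0 counts in medulla against 1086 CPM, a ratio of at most 0.0298. Slc7a13, an aspartate and glutamate transporter of the straight segment from the list of later markers, stood at 359.3 against 1762 CPM in cortex and at 10.8 CPM, 1 count, against 2426 CPM in medulla. Of its 85 cortical counts 74 lay in the 4 deep barcodes, and without them the ratio was 0.0483. Slc7a13 or Cyp7b1 was detected in 10 of 39 cortical and 1 of 24 medullary low members, against 24 of 26 and 69 of 69 reference barcodes.

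Genes of glucose transport and synthesis were mixed. Of 7 compared genes of glucose and ammonia synthesis 1 was higher and 1 lower in cortex, and 2 were higher and 2 lower in medulla. Slc2a2, the basolateral transporter GLUT2, was detected in 56.4% of cortical and 75% of medullary low members and stood at 295.9 CPM in cortex against 91.8 CPM in the later-segment reference (ratio 3.23, 1.65 to 7.02). In medulla it stood at 592.4 against 31.0 CPM (ratio 19.1, 9.91 to 40.5). Slc37a4, the carrier that brings glucose phosphate to the enzyme of glucose release, was higher in both libraries, at 148 against 64.2 CPM and 215.4 against 76.0 CPM. G6pc, the enzyme of glucose release, stood at 350.9 against 220.2 CPM in cortex (ratio 1.59, 1.00 to 2.62), short of 2-fold, and at 420 against 53.5 CPM in medulla (ratio 7.86, 4.43 to 14.4). Its cortical ratio was 2.04 (1.25 to 3.42) without the deep barcodes. Pck1, the cytosolic enzyme of glucose synthesis PEPCK, went the other way, at 498.9 against 1129 CPM and 463.1 against 979.3 CPM. Gatm was 7.70-fold (3.62 to 19.6) and 94.4-fold (31.1 to 468.2) higher, and Prodh2 at least 6.60-fold and at least 52.3-fold.

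**Figure D2:**
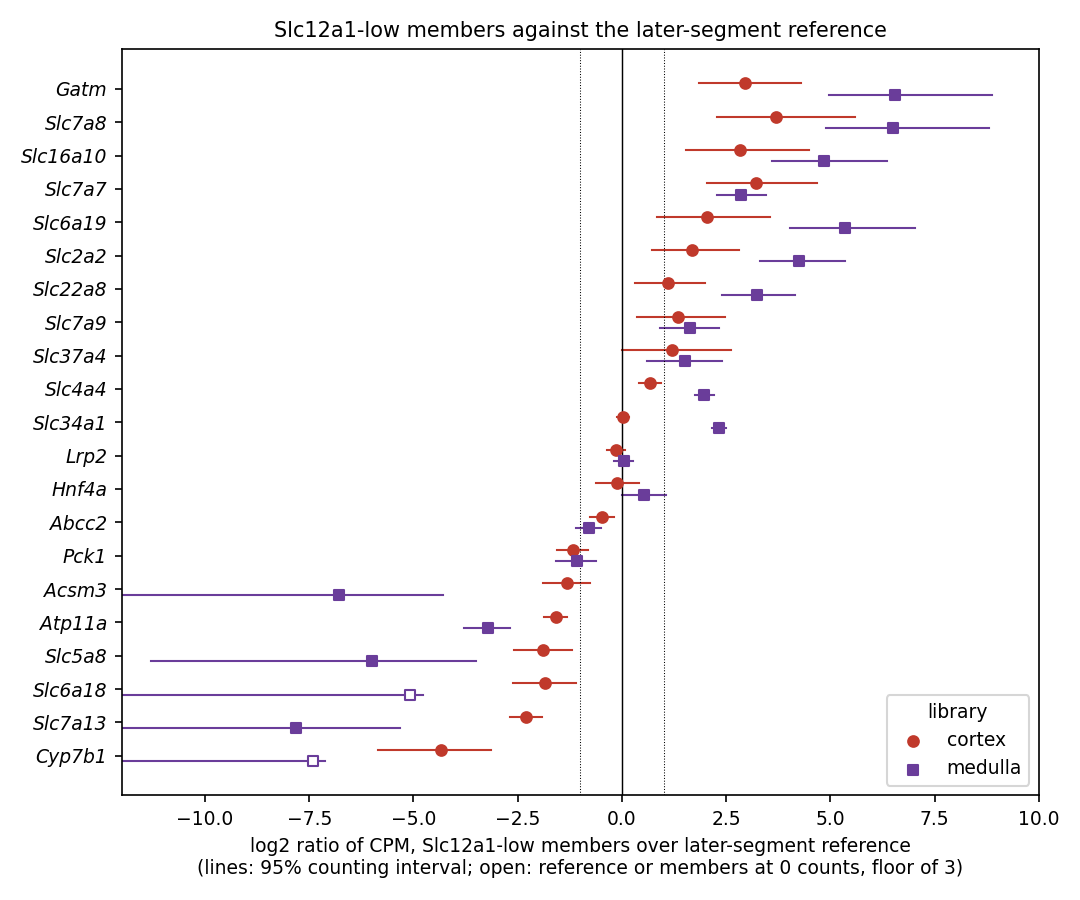
Log2 ratio of CPM in Slc12a1-low members over the later-segment reference for listed genes in cortex and medulla; lines are 95% counting intervals, dotted lines mark 2-fold and open symbols are bounds from a class at 0 counts. Early segment genes lie to the right in both libraries, Slc7a13 and Cyp7b1 to the left, and Slc34a1 differs between the libraries.

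Among further proximal tubule genes, Hnf4a and Slc47a1 were within 2-fold of the later-segment reference in both libraries. Slc34a1, Slc4a4, Maf and Dab2 were past 2-fold higher in medulla. There Slc4a4 stood at 3490 against 886.5 CPM, Maf at 958.6 against 236.4 CPM and Dab2 at 4847 against 2358 CPM. In cortex these 3 stood at 2253 against 1413, 684.9 against 568.9 and 4414 against 5028 CPM. Lrp2 stood at 2241 against 2459 CPM in cortex, a description only, since both classes were chosen by it. Hnf4a stood at 405.8 against 440.4 CPM in cortex and 463.1 against 318 CPM in medulla. Slc47a1, the organic cation exporter MATE1, stood at 993.5 against 1184 CPM and 1088 against 968.1 CPM. Slc34a1, the main phosphate transporter NaPi-IIa, stood at 5445 CPM in cortical low members, from 10 to 153 counts per barcode, against 5340 CPM in the reference (ratio 1.02, 0.924 to 1.13). In medulla it stood at 7248 CPM, from 12 to 69 counts, against 1444 CPM (ratio 5.02, 4.47 to 5.64). There it was detected in 29 of 69 reference barcodes and in all 24 low members. The cortical and medullary reference barcodes differed in level as well, so the contrast within each library is not the same one.

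Fatty acid genes leaned lower in low members, with 4 of 10 compared genes lower and 0 higher in cortex and 4 lower and 1 higher in medulla. Without the deep barcodes 6 of 10 were lower in cortex. Acadm, a mitochondrial dehydrogenase of fatty acid oxidation, stood at 97.2 against 220.2 CPM and at 32.3 against 548.8 CPM. Ehhadh, a peroxisomal enzyme, stood at 54.96 against 174.3 CPM and at 21.5 against 250.5 CPM. Without the deep barcodes its cortical level was 23.2 CPM from 3 counts, and the ratio went from 0.315 to 0.133 (0.0252 to 0.452). Ppara, the nuclear receptor of this pathway, stood at 1032 against 697.3 CPM and 1023 against 447.4 CPM, past 2-fold only in medulla. Slc5a8, a monocarboxylate transporter of the later tubule, was lower in both, at 126.8 against 467.9 CPM and 10.8 CPM, 1 count, against 681 CPM. Without the deep barcodes the cortical level of Slc5a8 was 69.5 CPM, and the ratio went from 0.271 to 0.149 (0.0643 to 0.305).

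Across all compared genes, those farthest above the later-segment reference in both libraries were Itpr2, an inositol trisphosphate receptor, Angpt1, a vascular ligand, and Slc7a8. Itpr2 stood at 638.4 against 36.7 CPM in cortex and at 829.3 against 5.63 CPM in medulla. Angpt1 stood at 363.6 against 9.18 CPM and at 387.7 against 2.81 CPM. The others included Slc8a1, Epb41l3, Gm31718, Agmo and Snhg11 in cortex and 4921539H07Rik, Prodh2, Acss1 and Gatm in medulla. Those farthest below were Cyp7b1 and Slc7a13 in both, with Ugt2b37, Gm13936, Gm20400, Rnf180, Pgm1 and Rnf24 in cortex and Bcat1, Slc7a12, Slc22a19, Slc6a18, 4930533I22Rik and Acsm3 in medulla. Cyp7b1 stood at 25.4 against 513.8 CPM in cortex and at 0 counts against 5513 CPM in medulla, a ratio of at most 0.00586. All 56 Cyp7b1 counts of the cortical reference lay in 1 of its 26 barcodes, and 5 of the 6 in cortical low members lay in 1 deep barcode, so the cortical ratio of 0.0494 rests on single barcodes, and it was 0.0150 from 1 count without the deep ones. In the medullary reference 49 of 69 barcodes held the gene.

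Slc8a1, the sodium-calcium exchanger of the distal tubule, led the cortical list and was unevenly spread over barcodes. Of its 179 counts in cortical low members 126 lay in 1 barcode and 88.8% in 3. Slc12a3, the thiazide-sensitive cotransporter of the distal convoluted tubule, had 62 counts, 46 of them in 1 barcode. Of the 5 distal markers 4 were detected in cortical low members, with Pvalb at 0, and 1 in medullary ones, Slc8a1 with 1 count. Slc12a3 was at 605.6 CPM in the cortical later-segment reference and at 142.5 CPM in cortical TAL, against 262.1 CPM in cortical low members and 440.5 CPM without the deep barcodes. Its ratio to the later-segment reference went from 0.433 to 0.727 without them, and that to TAL from 1.84 to 3.09. The part of distal nuclei in the cortical values was not tested.

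Markers of other cells were more abundant in cortical than in medullary low members for most lists. Endothelial markers had 5 of 5 genes detected in cortical low members, summing to 418.5 CPM (239.6 CPM without the deep barcodes) with Flt1 as the most abundant, and 0 of 5 in medullary ones. Podocyte markers had 4 of 4 genes and 126.8 CPM against 0 of 4, and without the deep barcodes only 5 counts of Podxl (38.6 CPM). Principal cell markers had 4 of 4 and 93.01 CPM against 0 of 4, and without the deep barcodes 2 counts in 2 of 4 genes. Immune markers had 4 of 4 and 88.8 CPM against 1 of 4 and 10.8 CPM. Without the deep barcodes the cortical immune markers were only 2 counts of Adgre1 (15.5 CPM), near the medullary level. Intercalated cell markers had 2 of 4 and 67.6 CPM against 2 counts of Slc26a4, with 4 of the 16 cortical counts outside the deep barcodes, and stromal markers had 6 counts against 1. Macula densa markers had 1 count in each library, of Nos1. Their part in the differences between cortex and medulla was not tested.

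Injury markers were low. Of 12 genes 5 were detected in cortical low members, for 80.3 CPM in sum, and 2 in medullary ones, for 43.1 CPM, with Spp1 leading in both. Lcn2, Krt20 and Sox9 had 0 counts in both libraries, and Havcr1, encoding the injury marker KIM-1, had 0 and 1.

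Between the libraries, medullary low members were compared with cortical ones. Of 2083 compared genes 49 were higher in medulla (2.35%) and 90 lower (4.32%), smaller shares than in any contrast above. Without the 4 deep cortical barcodes the figures were 65 of 2084 higher (3.12%) and 79 lower (3.79%). Region, depth and library cannot be told apart here.

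Of the early segment genes outside the rule that could be compared, some were past 2-fold higher in medulla. Prodh2 was 441.6 against 181.8 CPM (ratio 2.43, 1.54 to 3.82), and 2.12 (1.27 to 3.58) without the deep barcodes. Cyp24a1 was 193.9 against 63.4 CPM (ratio 3.06, 1.46 to 6.52), and 2.79 without them. Slc2a2 was 592.4 against 295.9 CPM (ratio 2.00, 1.38 to 2.89). Slc6a19 was 570.8 against 228.3 CPM (ratio 2.50, 1.68 to 3.72) but 1.94 (1.26 to 3.03) without the deep barcodes, short of 2-fold. Gatm, at a ratio of 1.61, and Slc34a3, at 1.05 with an interval from 0.368 to 2.66, were within 2-fold or too sparse to tell. Slc9a3 was 495.4 against 228.3 CPM (ratio 2.17, 1.43 to 3.28).

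The genes farthest above cortex included Cpne4, Ncam2, Pdpk1, Cys1, Slc6a19, Prodh2 and Gsta2. Those farthest below were Slc8a1, Phactr1, Abca13, Slc12a3, Slc7a13, Meis2, Acsm3 and Maml2. Of these, 3 barcodes held 92.1% of the 63 cortical Abca13 counts, 93.5% of the Slc12a3 counts and 73.0% of the 126 Meis2 counts. Without the deep barcodes Slc7a13 and Acsm3 had too few counts to be compared, Acsm3 with 1 count in medulla against 9 in cortex where it had 51 with them. Slc8a1, Phactr1, Abca13, Slc12a3, Meis2 and Maml2 were still among the 8 lowest.

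Slc12a1-high members carried both sets of genes. Umod and Egf together had a median of 49 counts in cortical high members, from 0 to 304, and 31 in medullary ones, from 2 to 84. Of the proximal genes outside the rule, Slc34a1 had a median of 25 counts in cortical and 26 in medullary high members. Gatm was detected in 83.4% and 76.9% of them, against 1.88% and 0.657% of TAL reference barcodes, which were shallower. The genes of the rule, given as a description, had medians of 25 and 29 counts for Slc5a2 and Slc5a12 together and 40 and 52.5 for Slc12a1.

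Compared with low members, 261 of 4674 genes were higher (5.58%) and 141 lower (3.02%) in cortex, and 158 of 2113 higher (7.48%) and 98 lower (4.64%) in medulla. Of those higher and compared in both libraries, 78 were shared, 80.4% of the cortical and 49.7% of the medullary ones. Of those lower, 5 were shared, 31.2% and 5.21%. The rule set Slc12a1 apart in this contrast, so these counts describe the 2 classes and are read no further.

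Of 8 compared TAL genes 7 were higher in cortex, and of 6 in medulla 5, Cldn10 being the exception in both. Egf stood at 5969 CPM in cortical high members against 169.1 CPM in low ones, and at 3676 against 75.4 CPM in medulla. Its cortical ratio of 35.3 was 23.4 without barcodes over 10000 counts in either class. Casr, the calcium-sensing receptor, stood at 530.1 CPM against 1 count in cortex (ratio 125.4, 22.5 to 4956), and the ratio was 70.5 without those barcodes. Enox1, Erbb4 and Egf were among the first 8 in both, with Casr, Sfrp1, Thsd4, Stk32b and Tenm2 in cortex and Abca13, Sgcz, Cacnb4, Slc5a3 and Mecom in medulla. Abca13, a lipid transporter gene, stood at 1806 CPM in medullary high members against 0 counts in low ones, at least 55.9-fold higher.

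Early segment markers remained present in high members. Prodh2 stood at 189.2 CPM in cortical high members against 181.8 CPM in low ones (ratio 1.04, 0.761 to 1.46), and Cyp24a1 at 83.4 against 63.4 CPM. In medulla Prodh2 stood at 190.4 against 441.6 CPM (ratio 0.431, 0.288 to 0.653), Slc2a2 at 207.7 against 592.4 CPM and Gatm at 418.4 against 797 CPM. CPM is a share of the class total, and high members also carried TAL genes, so these ratios are not levels per barcode. Mean counts per medullary barcode, up to 10000 counts, were 1.22 in high against 1.71 in low members for Prodh2. They were 1.33 against 2.29 for Slc2a2 and 2.71 against 3.08 for Gatm. The median log2 ratio of the 11 compared amino acid transporters in medulla was -0.62, and that of the 14 in cortex -0.34, against -0.08 and -0.06 for all compared genes. The genes farthest below low members were Meis2, Adgrl4, Pcdh9, Podxl, Ebf1, Niban1, Flt1 and Lama2 in cortex. In medulla they included Cpne4, Gsta2, Etv1, Slc2a2, Tec and Miox. Of the 18 Podxl counts in cortical low members 13 lay in the 4 deep barcodes, and of the 50 Flt1 counts 30. Without barcodes over 10000 counts Adgrl4, Podxl, Niban1 and Lama2 had too few counts to be compared.

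High members held more counts per barcode. Their median was 5909 in cortex and 6428 in medulla, against 3540 and 3799 in low members and 2296 and 2413 in TAL. The low and TAL medians added to 5836 and 6212, and the high median was 1.01 and 1.03 times those sums.

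**Figure D3:**
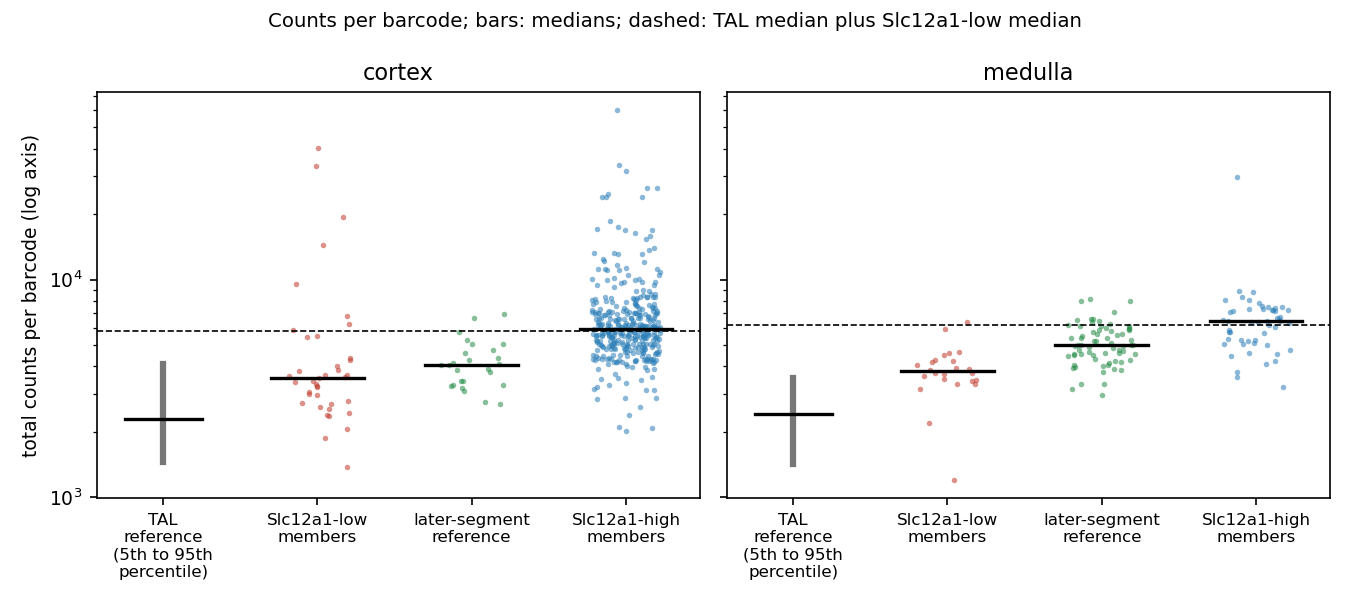
Total counts per barcode on a log axis in each class, with points for barcodes, black bars for medians and, for the TAL reference, a grey bar from the 5th to the 95th percentile. The median of Slc12a1-high members, 5909 and 6428, lies near the dashed line at the sum of the TAL and Slc12a1-low medians, 5836 and 6212.

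The same sum was taken gene by gene from mean counts per barcode, with barcodes over 10000 counts left out (4 low and 39 high members in cortex, 0 and 1 in medulla). The ratio of high members to the sum had a median of 0.939 over 2940 genes in cortex (interquartile range 0.839 to 1.04) and 0.972 over 2113 genes in medulla (0.844 to 1.10). For genes higher in low members than in TAL the median was 0.947 and 0.935, and for genes lower in low members 0.986 and 1.05. With all barcodes kept the median was 0.812 in cortex and 1.04 in medulla. Slc34a1 had 24.8 counts per cortical high barcode against a sum of 24.6, and Umod 10.1 against 9.99. In medulla these values were 27.3 against 28.1 and 8.78 against 9.99.

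Some genes left the line. Prodh2 was 1.58 times the sum in cortex and 0.711 in medulla, from 27 and 41 counts in low members. Egf was 1.14 and 1.29 times the sum. Slc8a1 and Slc12a3 in cortex stood at 0.0477 and 0.0629 of the sum, and most of their counts in low members lay in few barcodes. Whether a high barcode held 2 nuclei was not tested directly. Scrublet, a doublet score built from simulated mixtures, flagged 54 of 368 cortical high members (14.7%) and 0 of 52 medullary ones. None of the 39 and 24 low members were flagged. It flagged 6.60% of all cortical barcodes and 4.85% of the cortical TAL reference, and 5.06% of the medullary TAL reference. Flagged barcodes were left out in 1 alternative only and kept elsewhere. The median score was 0.0289 in cortical high members against 0.0554 in cortical TAL, and 0.0875 against 0.0858 in medulla. The scores called 3 medullary barcodes in all at the automatic threshold, so the highest 5% were taken there.

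**Figure D4:**
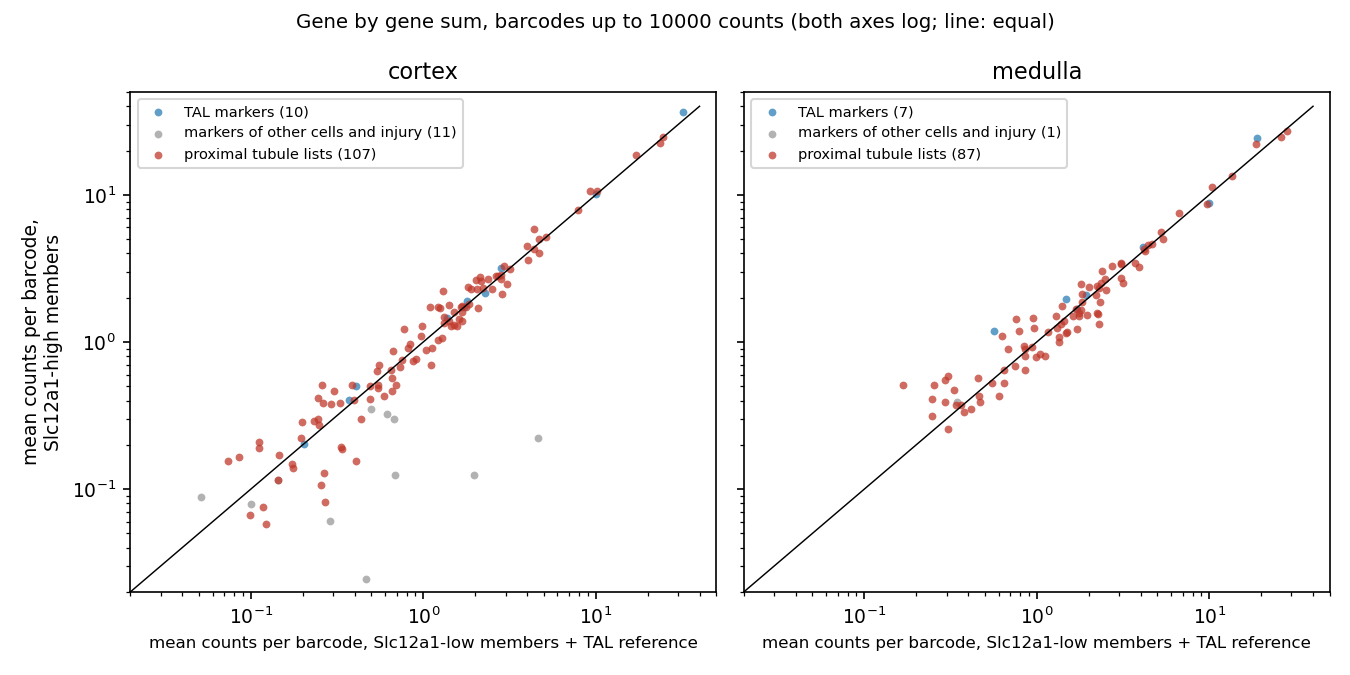
Mean counts per barcode in Slc12a1-high members (vertical) against the sum of Slc12a1-low members and the TAL reference (horizontal), both on log axes, for listed genes with at least 20 counts in low and high members together and outside the rule; the line marks equality. Proximal and TAL genes lie along the line in both libraries, and several markers of other cells, Slc8a1 and Slc12a3 among them, fall below it in cortex.

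Deposited cluster numbers, made from the same counts, separated the classes in medulla and in part in cortex. Of the 39 cortical low members 29 lay in cluster 13, which also held 25 of the 26 later-segment barcodes, and 262 of 368 high members lay in cluster 7 with 1 low member. Cortical cluster 6 held both classes, with 9 low (23.1%) and 103 high members (28.0%). In medulla all 24 low members and all 69 later-segment barcodes lay in cluster 11, and all 52 high members in cluster 10.

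Straight-segment genes were found in a minority of high members and unevenly. Slc7a13 or Cyp7b1 was detected in 61 of 368 cortical and 8 of 52 medullary high members, against 10 of 39 and 1 of 24 low members. In the shallower TAL reference it was detected in 289 of 4352 cortical and 240 of 7763 medullary barcodes. In medulla 137 of the 138 Cyp7b1 counts of high members lay in 1 barcode, and 43 of the 60 Slc7a13 counts in 1 barcode.

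Free RNA was measured in barcodes outside the called set with under 100 counts. Slc5a12 made up 695.6 CPM of it in cortex and 103.7 CPM in medulla, and Slc12a1 13338 and 21370 CPM. In barcodes with at least 10 Slc12a1 counts and fewer than 5 of Lrp2 and Cubn, a count of Slc5a2 or Slc5a12 was found in 5.41% in cortex and 0.778% in medulla. Their median depths with such a count were 2727 and 2575 counts, under those of members.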

How the data were processed

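Nuclei were profiled in 2 libraries, 1 of cortex and 1 of medulla, with the PIPseq T10 kit. The authors aligned reads to GRCm39 with PIPseeker 3.3.0 and deposited raw and filtered matrices of whole counts (molecules per gene and barcode), before their doublet and background removal. Their deposited cluster tables give a cluster number per barcode, used as a description only. Barcodes were assigned by the count rule, and members and gene lists (23 lists, 177 genes) were chosen with earlier results of these data known. Counts were summed per class over 32227 genes. Levels carry exact Poisson intervals, ratios intervals from the binomial split of both counts, and shares Clopper-Pearson intervals, all at 95% and for counting error only. No count model was run, as each region had 1 library. By rule the text names the markers, the 2 to 4 most abundant members of a list, members past 2-fold in both libraries, and the 8 highest and 8 lowest genes per comparison by the interval bound nearest 1. Other list members, and genes whose counts lay in few barcodes, were named after their values were seen. Doublets were scored with Scrublet but kept. Alternatives were a stricter rule (10 and 5 counts), thinning to 1500 counts, Slc12a1 at 0, a minimum of 20 counts, barcodes weighted equally, free RNA subtraction, quality filters and removal of high Scrublet scores, and, chosen after seeing the data, removal of barcodes over 10000 counts. Python 3.11.15 was used with numpy 2.4.6, scipy 1.17.1, pandas 2.3.3, scanpy 1.11.5 and matplotlib 3.10.9, and the scripts were tested on simulated data. How strand entered the counting was not given in the sources used here. Some genes that this rule names are not reported here.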

Additional observations from a re-analysis of the deposited data

Results flagged for a closer look

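Outside the called nuclei, 3 barcodes of the cortex library met the member rule, 2 of them with at most 2 Slc12a1 counts, against 0 in medulla. They stood out because they lie in data that no comparison used. Their median was 987 counts and their highest 1099, below the lowest called cortical nucleus at 1268 counts.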

How the results depend on the processing

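The 413 cortical members became 268 under the stricter rule and 90 after thinning to 1500 counts, which left out 313 shallower cortical and 492 medullary barcodes, and the 76 medullary members became 22 after thinning. Slc12a1-low members in cortex (39) became 23 under the stricter rule, 21 after thinning and 23 with Slc12a1 at 0, and in medulla (24) they became 14 and 11 under the first pair. Genes past 2-fold between low members and TAL in cortex (1640) numbered 856 with Slc12a1 at 0, 994 with a minimum of 20 counts and 1060 without barcodes over 10000 counts, and in medulla (863) 544 under the stricter rule and 426 with the minimum of 20. Against the later-segment reference they numbered 133 in cortex (331) with the minimum of 20, and 335 and 268 in medulla (530) under the stricter rule and that minimum. Between high and low members they numbered 210, 178 and 261 in cortex (402) with Slc12a1 at 0, the minimum of 20 and without deep barcodes, and 151 and 103 in medulla (256) under the stricter rule and that minimum. Between the regions they numbered 80 and 30 (139) under the same pair. Fewer barcodes or fewer genes compared enter by construction in each of these. Of 1123 values of single genes under an alternative, 982 moved by less than their counting interval, 141 moved by more and 0 changed direction. The 982 include 141 values under the minimum of 20 counts, which could not move a ratio. They also include 141 under the quality filters, which changed none of the comparisons. A change of direction was looked for only in genes past 2-fold, and bounds from 0 counts on the far side of 1 were left out. No paired analysis was possible because each region had 1 library and no test was run. With 24 to 39 low barcodes per library, genes whose mean CPM over both classes was worth under 10 counts in the smaller class were not compared.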
